A study of Mus musculus with 144 samples.

Results

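De novo lipogenesis is the pathway by which the liver builds fatty acids from carbohydrate. It was followed here through 10 genes, Srebf1, Fasn, Acaca, Acacb, Acly, Scd1, Elovl6, Me1, Pnpla3 and Thrsp, taken by name from the raw gene count table. That table lists 51912 genes, and the 10 genes are given in every library whatever their level.

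The livers came from male C57BL/6J mice, either wild type or lacking Bmal1 (Bmal1-/-), fed ad libitum and housed with 12 h of light each day. They were taken at ZT2, ZT6, ZT10, ZT14, ZT18 and ZT22, where ZT is zeitgeber time in hours after lights on. Total RNA, nuclear RNA (nuclei isolated in hypotonic buffer and a sucrose cushion) and polysomal RNA (cycloheximide lysates run on a sucrose gradient) were sequenced from wild-type livers, and total RNA alone from Bmal1-/- livers. Each of these 4 series holds 6 libraries at each of the 6 times, numbered 1 to 6 in the titles, so 36 libraries a series. The libraries were made with the QuantSeq 3′ mRNA kit, which reads the 3′ end of each polyadenylated transcript, so counts were not scaled by transcript length. The labels do not say whether libraries of different number came from different mice, or whether 1 liver gave several fractions. P-values therefore measure only the spread between these libraries.

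In this pathway ATP citrate lyase turns citrate into cytosolic acetyl-CoA, acetyl-CoA carboxylase turns that into malonyl-CoA, and fatty acid synthase builds palmitate from both with NADPH. Elongases and desaturases then lengthen and unsaturate the product. In liver the transcription factors SREBP-1c, ChREBP and LXR switch these genes on with insulin and carbohydrate after feeding, and mice eat mostly in the dark phase. BMAL1 is the partner of CLOCK in the transcription factor that drives the circadian clock.

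Promoter sequence was looked up for the genes because they share regulators. The RefSeq table (GRCm38.p6) holds 12 promoters for 9 of the 10 genes, all but Scd1, each running from 250 bases before to 50 bases after the transcript start. The CCAAT box, bound by NF-Y, which works beside SREBP, was searched as CCAAT on both strands. It was found in 8 of the 12 promoters, of Acacb, Acly, Fasn, Me1, Pnpla3, Srebf1 and Thrsp, and in 37.4% of all 32851 promoters. AGGTCA, the core that nuclear receptors such as LXR bind, was found in 3 of the 12 (Acacb, Acly, Elovl6) and in 16.3% of all promoters. No member promoter held the E-box CACGTG, the core bound by BMAL1 and CLOCK and by ChREBP (7.15% of all), the sterol response form TCACNCCAC (1.24% of all) or the full LXR element, 2 copies of AGGTCA with 4 bases between (0.0152% of all). The E-box is a palindrome and the other motifs were searched on both strands. These are letter matches only.

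The 120 bases before the start are printed 5′ to 3′ for the 5 genes in which CCAAT or its reverse complement ATTGG, in capitals, lies within that stretch and whose levels the results below turn on most. In Fasn a forward and a reverse copy overlap as one 8-base palindrome.
Fasn promoter, chr11:120824548-120824667, minus strand: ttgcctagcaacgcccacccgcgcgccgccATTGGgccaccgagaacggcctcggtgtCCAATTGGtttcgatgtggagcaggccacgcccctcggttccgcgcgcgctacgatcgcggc
Thrsp promoter, chr7:97417551-97417670, minus strand: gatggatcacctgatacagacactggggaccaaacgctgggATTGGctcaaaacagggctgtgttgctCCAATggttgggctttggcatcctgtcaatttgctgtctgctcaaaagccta
Pnpla3 promoter, chr15:84167696-84167815, plus strand: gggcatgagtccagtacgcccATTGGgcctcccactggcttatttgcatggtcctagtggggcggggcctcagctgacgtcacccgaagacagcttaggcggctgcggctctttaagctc
Acacb promoter, chr5:114165398-114165517, plus strand: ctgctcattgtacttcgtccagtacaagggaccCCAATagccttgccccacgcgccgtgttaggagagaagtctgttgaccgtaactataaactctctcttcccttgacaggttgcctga
Srebf1 promoter, chr11:60210472-60210591, minus strand: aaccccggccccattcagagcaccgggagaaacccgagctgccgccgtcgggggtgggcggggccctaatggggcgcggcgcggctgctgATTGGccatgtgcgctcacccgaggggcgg

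In Fasn the copies begin 90, 62 and 59 bases before the start, in Thrsp 79 and 52, in Pnpla3 99, in Acacb 87 and in the Srebf1 promoter shown 30.

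The depth of a library, its sum of gene counts, was between 5316601 and 9831142 for wild-type total, 1662449 and 6620128 for nuclear, 2578048 and 13068044 for polysomal, and 4379549 and 14281894 for Bmal1-/- libraries. A level is a gene's counts as a share of that sum, scaled to CPM. Hepatocyte markers (Alb, Ttr, Apoa1, Tat, Cps1, Serpina1c) were abundant in all series, with median sums between 37257 and 78736 CPM. Arntl, the gene symbol of Bmal1, was not lower in the libraries labelled Bmal1-/-: its level was 6.73 ± 5.40 CPM (SD, n = 36) in wild-type and 11.5 ± 2.98 CPM (SD, n = 36) in Bmal1-/- total RNA. The labels do not give the deleted part of the gene, so the mean level of 3′ reads there does not check the label. Arntl time means ran from 0.852 CPM at ZT10 to 12.6 CPM at ZT22 in wild-type total RNA. In Bmal1-/- total RNA they ran from 9.16 CPM at ZT2 to 13.1 CPM at ZT18. Among all 360 pairs of libraries within a group, 0 held identical counts.

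Levels of the 10 genes were first set out in wild-type total RNA. Scd1, the desaturase that makes monounsaturated fatty acids, was the most abundant at a median of 3049 CPM, from 301 to 9388 over the 36 libraries. Thrsp (Spot 14, a small protein tied to lipogenic gene activity) had a median of 573 CPM, from 31.9 to 2949. Fasn, the fatty acid synthase, had a median of 309 CPM, from 80.4 to 943. Each of these 3 genes varied widely over the libraries. Together the 10 genes held a median of 0.418% of counts in wild-type total RNA, 0.566% in nuclear, 0.620% in polysomal and 0.102% in Bmal1-/- total RNA.

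The enzymes on either side of fatty acid synthase were lower. Acly, ATP citrate lyase, had a median of 137 CPM (62.5 to 434), and Me1, the malic enzyme that supplies NADPH, 130 CPM (45.6 to 322). Elovl6, which lengthens palmitate, had 58.8 CPM (18.04 to 216). Of the 2 acetyl-CoA carboxylases, Acaca had 48.5 CPM (18.1 to 95.0) and the mitochondria-bound Acacb 30.9 CPM (15.3 to 66.1). Srebf1, which encodes SREBP-1, had 50.2 CPM (9.19 to 112). Pnpla3, a lipid droplet protein gene and SREBP-1c target, lay near the limit of detection at 1.06 CPM (0 to 13.7), with 4 of the 36 libraries at 0. In this order every pair of neighbours overlapped in range over the 36 libraries, except that the highest Pnpla3 level lay below the lowest Acacb level. The medians of Acly and Me1, and of Elovl6, Srebf1 and Acaca, were closer together than the SD of any of them.

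**Figure D1:**
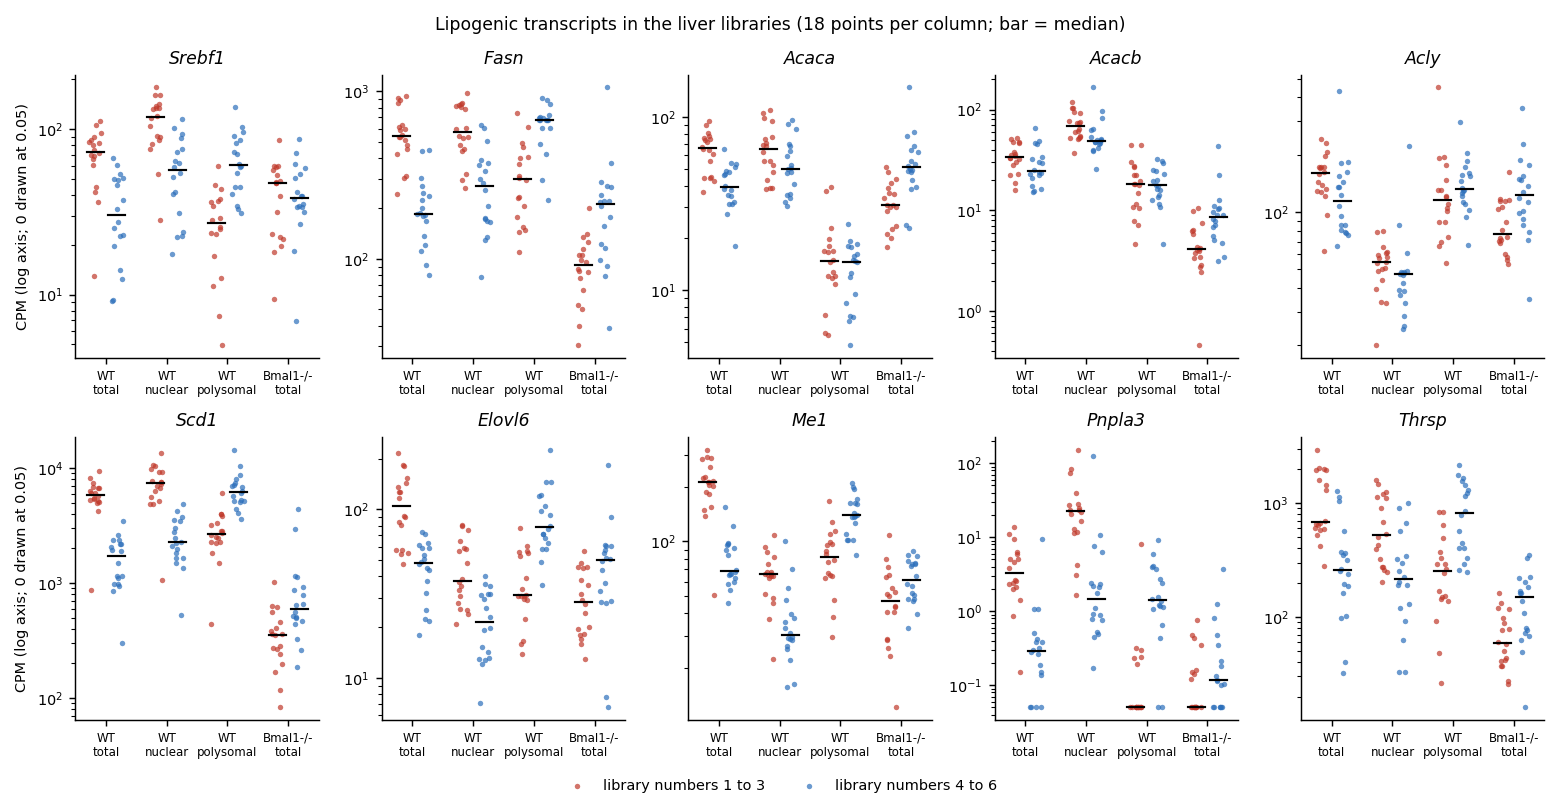
Level of each gene in every library, in CPM on a log axis that differs between genes, for the 4 series, with library numbers 1 to 3 in red and 4 to 6 in blue, the median of each set of 18 as a bar and levels of 0 drawn at 0.05 CPM. Scd1, Thrsp and Fasn stand above the other genes in each wild-type series, and in Bmal1-/- total RNA the medians of Scd1, Thrsp and Fasn were 464, 78.9 and 115 CPM.

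Levels at one time of day differed with the library number. In wild-type total RNA the libraries numbered 1 to 3 had a mean Fasn level of 577 CPM and those numbered 4 to 6 a mean of 212 CPM. Scd1 stood at 5900 against 1675 CPM, Thrsp at 1159 against 388, Me1 at 212 against 80.3, Elovl6 at 111 against 46.3 and Srebf1 at 71.3 against 33.9. At ZT6 the Fasn levels of libraries 1 to 6 were 514, 537, 588, 92.2, 80.4 and 181 CPM, so the 2 sets of numbers did not overlap. Acly (158 against 134 CPM) and Acacb (34.7 against 29.8 CPM) were closer.

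By their means, numbers 1 to 3 were again the higher set in nuclear RNA for all the genes but Acly, and the lower set in polysomal RNA for all but Acaca and Acacb. Nuclear Fasn was 610 CPM in numbers 1 to 3 and 293 CPM in numbers 4 to 6, and nuclear Scd1 7496 and 2515 CPM. Polysomal Fasn was 322 CPM in numbers 1 to 3 and 637 CPM in numbers 4 to 6, polysomal Scd1 2829 and 6748 CPM, and polysomal Thrsp 307 and 937 CPM. In Bmal1-/- total RNA numbers 4 to 6 were also the higher set, with Fasn at 94.0 and 236 CPM and Scd1 at 376 and 958 CPM. The labels give these numbers no meaning beyond a count, so what sets them apart cannot be told. Nor do they say that a number stands for the same liver or batch in each series.

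The order of the numbers was compared between series through all genes that averaged at least 50 counts, as deviations from the mean of each time. Of the 36 nuclear libraries 32 correlated best with the wild-type total RNA library of their own number and time. Of the 36 polysomal libraries 0 did, and 34 correlated best with a total RNA library of the other set of numbers. Whether the polysomal numbers run in another order than those of total RNA cannot be told from the labels, so polysomal numbers 1 to 3 may not be the counterpart of total RNA numbers 1 to 3. Results are for all libraries unless a set of numbers is named.

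Cfd (adipsin), a gene on the list of adipocyte markers, moved with these sets, with means of 24.6 and 0.207 CPM in numbers 1 to 3 and 4 to 6 of wild-type total RNA, 47.6 and 0.466 CPM in nuclear and 0.738 and 12.1 CPM in polysomal RNA. Fabp4 did not follow it, at 13.1 and 12.5 CPM in total and 4.40 and 6.86 CPM in nuclear RNA, and Adipoq, Plin1 and Retn had means below 0.3 CPM. The summed level of Adipoq, Cfd, Plin1, Lep, Retn and Fabp4 had a median of 34.3 CPM (8.97 to 128) in numbers 1 to 3 of wild-type total RNA and 10.9 CPM (5.91 to 23.3) in numbers 4 to 6. In nuclear RNA the medians were 52.2 and 7.36 CPM, in polysomal RNA 5.94 and 13.002 CPM, and in Bmal1-/- total RNA 10.4 and 9.89 CPM. Lep was at 0 in all libraries of the 3 wild-type series. Kupffer cell and macrophage markers had median sums of 269 and 155 CPM in the 2 sets of wild-type total RNA, 156 and 169 CPM in nuclear, 167 and 247 CPM in polysomal and 168 and 168 CPM in Bmal1-/- total RNA. The part of either list in the results was not tested. Fits were repeated without the 21 libraries, called Cfd-high below, in which Adipoq, Cfd and Plin1 summed to over 20 CPM, nearly all of it Cfd. Of these, 8 were wild-type total, 10 nuclear, 3 polysomal and 0 Bmal1-/- libraries. The total and nuclear ones were all of numbers 1 to 3, and the polysomal ones all of numbers 4 to 6. Leaving them out therefore also removes libraries of the sets with the higher mean Fasn and Scd1 levels.

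With the loss of Bmal1, 9 of the 10 genes were lower in total RNA and none was higher (edgeR's quasi-likelihood test, adjusted over all genes tested, threshold 0.05). Of all 12082 genes tested, 44.1% were called in this comparison and 21.7% were lower. The median log2 difference of the 10 genes was -1.48, against 0.005 over all genes tested. In bulk tissue fewer cells of a type and less RNA per cell cannot be told apart.

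Scd1 had a median of 464 CPM in Bmal1-/- total RNA, from 82.6 to 4376 over 36 libraries, against the wild-type median of 3049. The ranges overlapped, and the highest Bmal1-/- library exceeded the wild-type median. Its log2 difference was -2.72 (SE 0.28, adjusted p = 1.77e-12). Thrsp had a median of 78.9 CPM, from 16.1 to 348, against 573, and differed by -2.73 (SE 0.27, adjusted p = 6.27e-13). The highest Bmal1-/- Thrsp level lay below the wild-type median.

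Acacb, whose malonyl-CoA restrains mitochondrial fatty acid oxidation, had a median of 5.99 CPM in Bmal1-/-, from 0.457 to 43.3, against 30.9 CPM (15.3 to 66.1) in wild type. It differed by -2.23 (SE 0.17, adjusted p = 8.06e-18), the smallest p of the 10 genes. Acaca, the other carboxylase, stood at a median of 40.5 CPM (17.6 to 148) against 48.5 CPM and differed by -0.35 (SE 0.13, adjusted p = 0.022). The 2 carboxylase genes thus changed by unequal amounts, and the difference between them was not tested.

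Fasn had a median of 115 CPM in Bmal1-/-, from 30.5 to 1056, against 309 CPM, and differed by -1.46 (SE 0.23, adjusted p = 3.54e-07). Me1 had 52.1 CPM (12.1 to 108) against 130 CPM and differed by -1.49 (SE 0.17, adjusted p = 1.03e-10). Both ranges overlapped with wild type. Elovl6 stood at 36.1 CPM (6.70 to 183) and differed by -1.03 (SE 0.20, adjusted p = 1.56e-05), and Acly at 103 CPM (35.1 to 353) with a difference of -0.47 (SE 0.14, adjusted p = 0.0035).

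Pnpla3 had the lowest counts and the largest fitted difference, -3.75 (SE 0.51, adjusted p = 1.07e-08). Its level was 2.68 ± 3.51 CPM (SD, n = 36) in wild type and 0.282 ± 0.650 CPM (SD, n = 36) in Bmal1-/-, where 16 of the 36 libraries were at 0. Srebf1, the regulator among the 10, did not pass the test. It had a median of 39.6 CPM in Bmal1-/- (6.93 to 86.7) against 50.2 CPM, and a difference of -0.40 (SE 0.20, adjusted p = 0.0991).

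Within numbers 1 to 3 all 10 genes were lower in Bmal1-/-, with a median log2 difference of -2.45, among them Srebf1 (-0.85), Fasn (-2.68), Scd1 (-4.04) and Thrsp (-3.86). Within numbers 4 to 6, 4 of the 9 genes tested were lower: Acacb (-1.72), Scd1 (-1.11), Me1 (-0.47) and Thrsp (-1.17). There Fasn differed by -0.17 (adjusted p = 0.58) and Acaca by 0.29 (adjusted p = 0.0915), and the median was -0.169. Of all genes tested, 38.8% were called within numbers 1 to 3 (2343 of 12046 lower) and 33.5% within numbers 4 to 6 (1997 of 12080 lower). Acacb, Scd1, Me1 and Thrsp were therefore called lower in both sets, and the difference between the sets was not tested. Whether the sets correspond between the genotypes cannot be told. Of the 36 Bmal1-/- libraries 13 correlated best with the wild-type total RNA library of their own number and time. Another 13 correlated best with one of the other set. The size of a difference within a set therefore depends on how libraries were numbered.

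Cholangiocyte markers (Krt19, Krt7, Epcam, Sox9) summed to a median of 58.2 CPM (33.3 to 117) in Bmal1-/- and 19.0 CPM (9.90 to 53.0) in wild-type total RNA, and exocrine pancreas markers (Prss2, Cela1, Cpa1, Pnlip) to 102 CPM (15.5 to 185) and 34.3 CPM (15.0 to 94.4), with Cpa1 at 0 in both. Prss2 and Pnlip were also at 0 in wild-type total RNA, so that the sum there was Cela1 alone. The part of these markers in the difference was not tested. Without the Cfd-high libraries 8 of the 10 genes were lower, with a median of -1.19, and Acaca lost the call (-0.21, adjusted p = 0.227).

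**Figure D2:**
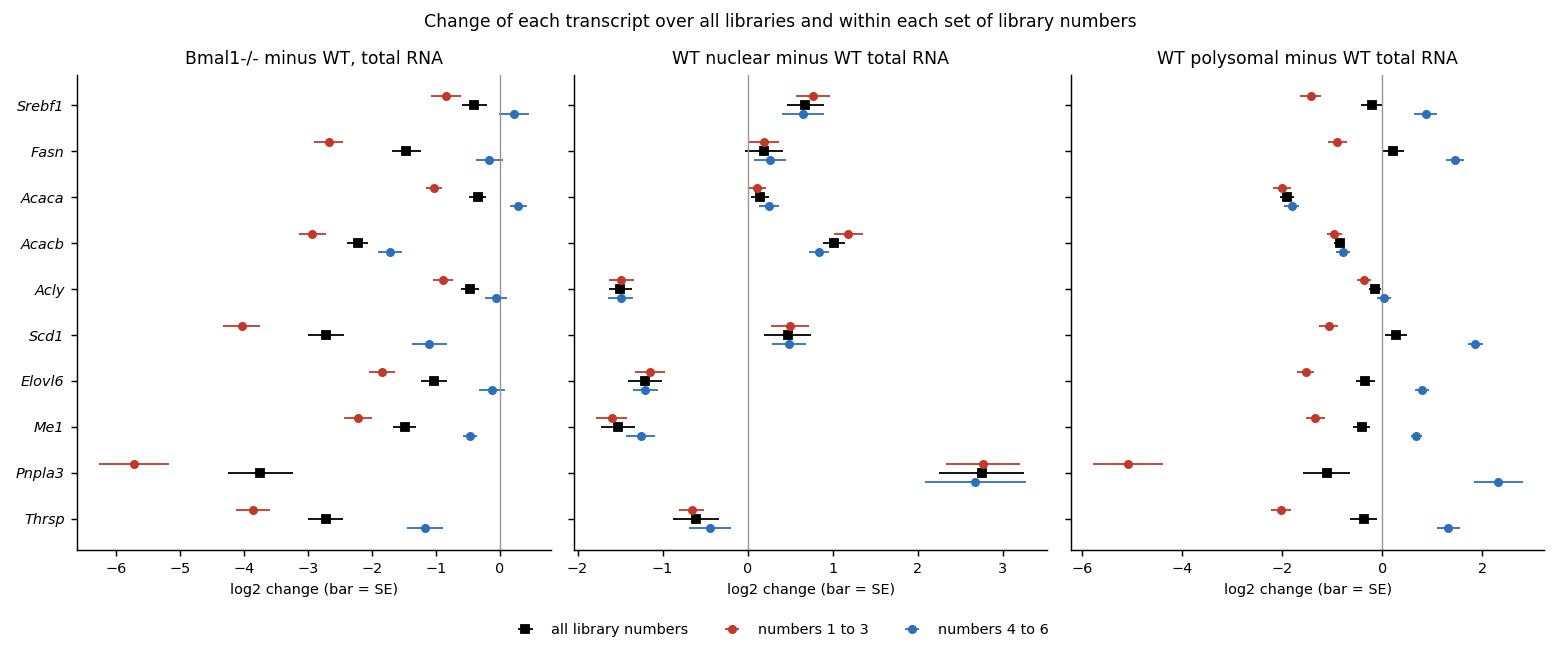
Log2 difference of each gene from wild-type total RNA with its SE, for Bmal1-/- total, nuclear and polysomal RNA, fitted on all libraries, on numbers 1 to 3 and on numbers 4 to 6. The polysomal values of numbers 1 to 3 lie below 0 for all 10 genes, and those of numbers 4 to 6 lie above 0 for 8 of them, with Acaca and Acacb below 0 in both. The sets of wild-type total RNA may not correspond to those of polysomal or Bmal1-/- RNA.

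By time of day the number of genes lower in Bmal1-/- was 3 at ZT2, 2 at ZT6, 4 at ZT10, 5 at ZT14, 8 at ZT18 and 6 at ZT22, and none was higher at any time. Of all genes tested 4.66%, 5.1%, 8.05%, 4.97%, 5.91% and 3.69% were lower at these times. Acacb and Scd1 were called at all 6 times, Me1 at 5, Thrsp at 4, Pnpla3 at 3, Acly at 2, and Fasn and Elovl6 at ZT18 alone. Srebf1 and Acaca were called at none. The median log2 difference of the 10 genes was -0.885 at ZT2 and -2.3 at ZT18. Within numbers 1 to 3 between 6 and 8 genes were lower at each time. Within numbers 4 to 6, Fasn, Acacb, Elovl6 and Thrsp were lower at ZT18, Me1 at ZT2 and Acacb at ZT6 and ZT22, and Acaca was higher at ZT2. Shares of all genes called at each time within a set are not given here. Scd1 was not called at any time in that set, with differences of 0.0285 at ZT2 (adjusted p = 0.981) and 0.0616 at ZT14 (adjusted p = 0.982). Without the Cfd-high libraries Me1 at ZT10 and ZT22, Scd1 at ZT14 and Acly at ZT18 were not called. With the library number as a block Scd1 at ZT2 and ZT14 was not. The sets and the block both rest on numbers that may not correspond between the genotypes.

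At ZT18, in the middle of the dark phase, wild-type Thrsp levels in libraries 1 to 6 were 1600, 664, 1963, 566, 164 and 1040 CPM. Bmal1-/- levels were 37.1, 42.0, 78.1, 109, 62.4 and 16.1 CPM. The groups did not overlap, and Thrsp differed by -4.28 (SE 0.71, adjusted p = 1.48e-05).

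Wild-type Fasn at ZT18 ran from 121 to 890 CPM with a median of 346, and Bmal1-/- Fasn from 38.7 to 141 with a median of 88.7. The groups overlapped in 1 wild-type library. Fasn differed there by -2.45 (SE 0.59, adjusted p = 0.00249).

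Scd1 at ZT18 was 5717, 867, 5368, 1113, 301 and 1162 CPM in wild-type libraries 1 to 6 and 281, 273, 351, 661, 324 and 186 CPM in Bmal1-/-. The lowest wild-type library lay within the Bmal1-/- range and the other 5 above it. The difference was -2.96 (SE 0.69, adjusted p = 0.0019).

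Me1 at the same time was 228, 50.4, 288, 62.9, 53.8 and 69.6 CPM in wild type and 25.6, 43.3, 55.3, 51.6, 56.9 and 33.2 CPM in Bmal1-/-, so that the wild-type libraries 2 and 5 lay within the Bmal1-/- range (-1.66, SE 0.43, adjusted p = 0.00504). Elovl6 was 144, 57.4, 216, 58.7, 25.3 and 58.8 CPM in wild type and 18.1, 35.4, 45.4, 28.2, 7.71 and 6.70 CPM in Bmal1-/- (-2.16, SE 0.50, adjusted p = 0.00182). Here 5 wild-type libraries stood above all Bmal1-/- libraries and library 5 did not. Pnpla3 was 6.37, 0.152, 5.90, 0.417, 0.377 and 0.299 CPM in wild type, and in Bmal1-/- 5 libraries were at 0 and 1 at 0.214 CPM, too few counts for a fold.

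Acacb at ZT22 was 35.1, 33.0, 51.1, 46.3, 66.1 and 48.8 CPM in wild type and 4.34, 2.72, 6.41, 4.75, 7.21 and 7.90 CPM in Bmal1-/-. These groups were far apart, with a log2 difference of -3.17 (SE 0.42, adjusted p = 3.00e-07). At ZT2 Acacb still differed by -1.46 (SE 0.39, adjusted p = 0.00855), although library 6 of Bmal1-/- reached 43.3 CPM and lay within the wild-type range of 25.3 to 52.0 CPM.

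That Bmal1-/- library, number 6 at ZT2, held the highest Bmal1-/- level of Fasn (1056 CPM), Scd1 (4376 CPM) and Thrsp (348 CPM). Without it 9 of the 10 genes were again lower over all times, with a median of -1.55.

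Rhythms were tested with a 24 h cosine in each series. In wild-type total RNA 3 of the 10 genes were rhythmic, as were 18.9% of all genes tested. The median peak-to-trough ratio of the 10 genes, on the log2 scale, was 0.727, against 0.323 over all genes tested.

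Thrsp levels in wild-type total RNA had time means from 319 CPM at ZT2 to 1516 CPM at ZT14, and at ZT14 libraries 1 to 6 held 1993, 1434, 2949, 316, 1132 and 1274 CPM. The fitted peak was at ZT14.5 with a log2 peak-to-trough ratio of 2.42 (adjusted p = 0.0038). Acacb had time means from 26.0 CPM at ZT10 to 46.7 CPM at ZT22 and peaked at ZT22.8, with a log2 ratio of 0.91 (adjusted p = 0.00314). Acly, with means from 117 CPM at ZT6 to 203 CPM at ZT22, peaked at ZT22.6 with a ratio of 0.78 (adjusted p = 0.04). Thrsp was called within each set of library numbers (adjusted p = 0.000181 and 0.00713), while Acacb (0.385 and 0.0091) and Acly (0.893 and 0.0111) were called within numbers 4 to 6 and not within numbers 1 to 3. In the fit of all 4 series Acacb (adjusted p = 0.124) and Acly (0.118) lost the call, and for any difference between the times Thrsp (0.0533) and Acly (0.175) did.

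The peaks of Acacb and Acly thus fell at the end of the dark phase and that of Thrsp early in it. At ZT22 Acly was 434 CPM in library 5 and 122 to 182 CPM in the others. Whether its peak holds without that library was not tested. Elovl6 time means were highest at ZT14 (110 CPM) and lowest at ZT22 (53.4 CPM), and its fit gave a ratio of 1.06 with a peak at ZT14.1 (adjusted p = 0.0875). Elovl6 was called with the library number as a block (adjusted p = 0.0139) and within numbers 1 to 3 (0.0255), and not within numbers 4 to 6 (0.338). Acaca was also called with that block (adjusted p = 0.0272). Fasn time means lay between 332 and 434 CPM, a spread smaller than the SD of 141 to 314 CPM within the times.

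In nuclear RNA Thrsp was the 1 rhythmic gene of the 10, with a log2 ratio of 2.45 and a peak at ZT13.9 (adjusted p = 0.00348), where 5.99% of all genes tested were rhythmic. Nuclear Thrsp was called within both sets (adjusted p = 3.99e-05 and 0.0133) and not for any difference between the times (0.0538). Nuclear Elovl6 was called with the block (adjusted p = 0.002), and nuclear Acly within numbers 4 to 6 (0.016). In polysomal RNA 4 of the 9 genes tested were rhythmic, beside 7.9% of all genes. Polysomal Thrsp had time means from 220 CPM at ZT6 to 1108 CPM at ZT14 and a ratio of 2.50 with a peak at ZT15.9 (adjusted p = 0.00499). Polysomal Elovl6 peaked at ZT16.5 (ratio 1.41, adjusted p = 0.0206), Acly at ZT23.2 (0.93, adjusted p = 0.0105) and Acacb at ZT1.31 (1.06, adjusted p = 0.0102). Polysomal Thrsp was called within each set (adjusted p = 0.0307 and 0.000102), but not for any difference between the times (0.0748). Within numbers 1 to 3 and 4 to 6, polysomal Acacb (adjusted p = 0.0937 and 0.256) and Acly (0.1 and 0.32) were called in neither set, and without the polysomal libraries numbered 1 both also lost the call (0.066 and 0.0949). Polysomal Elovl6 was called within numbers 4 to 6 (adjusted p = 0.00118) and not within numbers 1 to 3 (0.127), without the Cfd-high libraries (0.0727) or for any difference (0.189). None of the 10 genes, and 0% of all genes tested, had a rhythm that differed between nuclear or polysomal and total RNA by edgeR. For the 10 genes that is 0 calls by DESeq2 and 0 at an unadjusted p under 0.05 in both comparisons.

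In Bmal1-/- total RNA 0 of the 9 genes tested were rhythmic by edgeR, 0 at an unadjusted p under 0.05 and 0 by DESeq2. Of all genes tested 0.00825% were rhythmic there. The median log2 peak-to-trough ratio of the 9 genes was 0.752, against 0.193 over all genes tested. The lack of calls therefore does not show a smaller fitted daily range than in wild type. Fasn (323 CPM) and Scd1 (1271 CPM) had their highest Bmal1-/- time means at ZT2, where library 6 was high in both. The ratio without that library is not given here. Thrsp time means ran from 57.4 CPM at ZT18 to 145 CPM at ZT14. The rhythm of Thrsp differed between Bmal1-/- and wild type in the test of the interaction (adjusted p = 0.0337), the 1 gene of the 10 to do so, beside 5.18% of all genes. That call was lost within numbers 1 to 3, without the Cfd-high libraries, in the fit of all 4 series and without Bmal1-/- library 6 of ZT2.

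**Figure D3:**
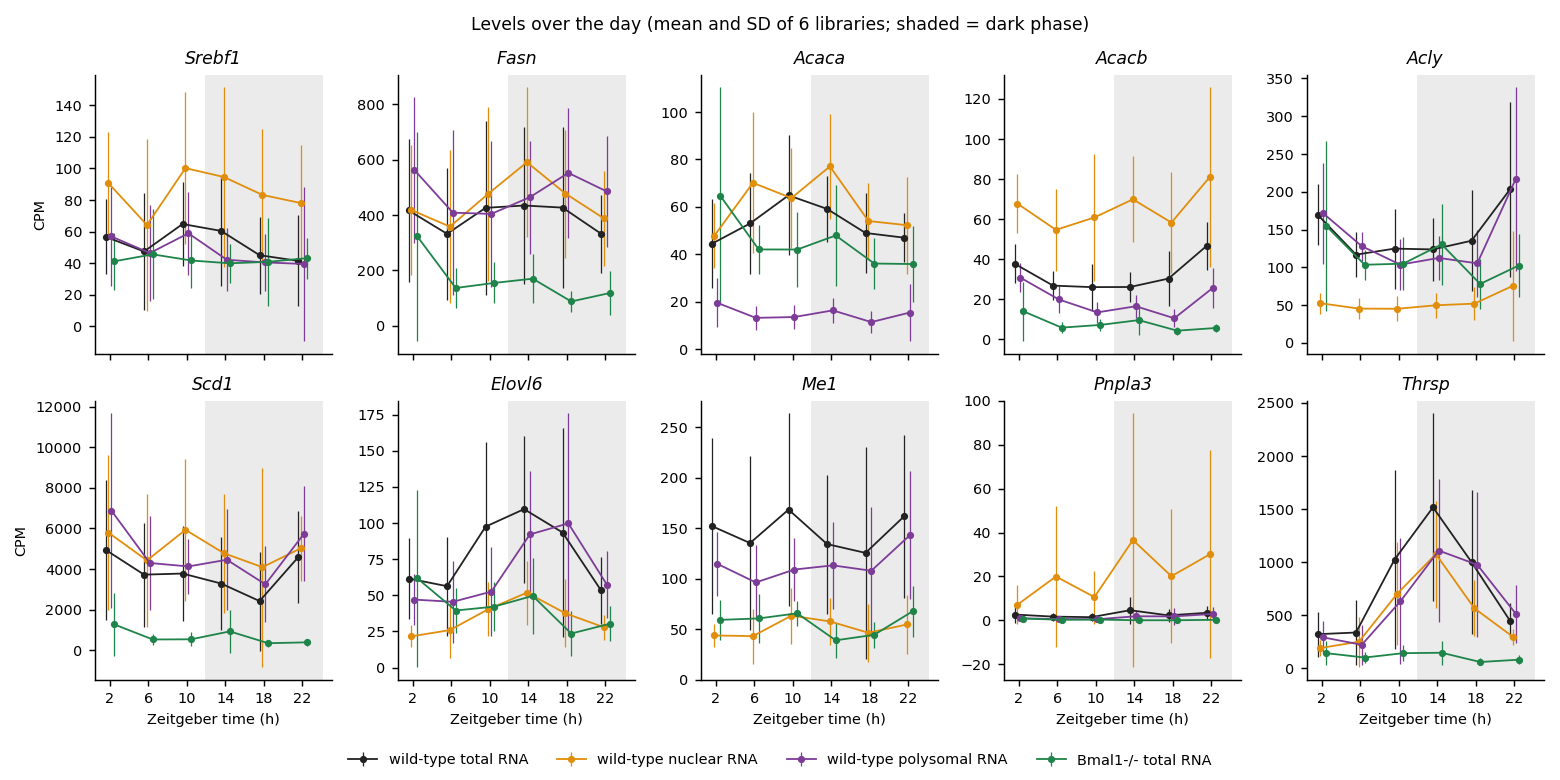
Mean level at each zeitgeber time in CPM, with the SD of 6 libraries as bars, for the 10 genes in the 4 series, with the dark phase shaded. Wild-type Thrsp rises from 319 CPM at ZT2 to 1516 CPM at ZT14, while Bmal1-/- Thrsp stays between 57.4 and 145 CPM.

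Nuclear RNA was compared with total RNA to see how the transcripts are divided between nucleus and whole liver. CPM are shares of each library, so these are relative levels. In the fit without a block 3 of the 10 genes were higher and 4 were lower in nuclear RNA, where 83.8% of all genes tested were called (41.6% higher, 42.1% lower). Nuclear libraries mostly correlated best with the total RNA library of their own number and time. The fit that pairs them so is given below.

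Acacb levels had a nuclear median of 54.3 CPM (25.9 to 166) against 30.9 CPM in total RNA, a log2 difference of 1.02 (SE 0.13, adjusted p = 6.15e-11). Srebf1 had a nuclear median of 83.2 CPM (17.5 to 179) and a difference of 0.68 (SE 0.22, adjusted p = 0.00358). Pnpla3, at 6.96 CPM (0.172 to 152) in the nucleus, differed by 2.75 (SE 0.50, adjusted p = 1.17e-06). All 3 overlapped in range between the fractions. Nuclear Pnpla3 varied most, with 152, 24.5, 28.3, 0.443, 6.29 and 7.62 CPM in libraries 1 to 6 at ZT14, where total RNA held 13.7, 2.33, 10.9, 0, 0.501 and 0.263 CPM.

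Lower in the nucleus were Acly, at a median of 48.6 CPM (20.02 to 223) and a difference of -1.496 (SE 0.14, adjusted p = 3.76e-16), and Me1, at 47.9 CPM (15.7 to 109) and -1.52 (SE 0.20, adjusted p = 6.58e-10). Elovl6, at 30.8 CPM (7.15 to 81.2), differed by -1.21 (SE 0.20, adjusted p = 1.23e-07), and Thrsp, at 325 CPM (32.6 to 1602), by -0.61 (SE 0.27, adjusted p = 0.0327). Fasn (0.19), Acaca (0.14) and Scd1 (0.47, adjusted p = 0.105) did not pass the test. Scd1 passed within numbers 1 to 3 (0.49, adjusted p = 0.0434), within numbers 4 to 6 (0.49, adjusted p = 0.0303) and with the library number as a block (0.44, adjusted p = 0.00412). With number and time together as the block, so that each nuclear library was set against the total RNA library of its number and time, Fasn (0.19, adjusted p = 0.0107), Acaca (0.15, adjusted p = 0.0243) and Scd1 (0.41, adjusted p = 9.06e-06) passed as well, and all 10 genes were called. Thrsp did not pass within numbers 4 to 6 (-0.45, adjusted p = 0.0987). Within numbers 1 to 3 the counts were 4 higher and 4 lower, and within numbers 4 to 6, 4 higher and 3 lower. Of all genes tested 78.1% and 76.7% were called in these sets, so the counts of the 10 genes lie near those shares.

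In polysomal RNA 4 of the 10 genes were lower than in total RNA and none higher, where 76% of all genes tested were called (38.8% higher, 37.2% lower). Both carboxylases were among the 4. Acaca had a polysomal median of 14.6 CPM (4.81 to 39.1) against 48.5 CPM (18.1 to 95.0) in total RNA, a log2 difference of -1.90 (SE 0.13, adjusted p = 3.99e-21). Acacb had 18.05 CPM (4.59 to 44.3) and a difference of -0.85 (SE 0.11, adjusted p = 2.57e-10). The ranges of both overlapped with total RNA.

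Me1 stood at 106 CPM (29.7 to 211), with -0.41 (SE 0.17, adjusted p = 0.0278), and Pnpla3 at 0.308 CPM (0 to 9.28), with -1.11 (SE 0.47, adjusted p = 0.03). Fasn at 474 CPM (110 to 914), Scd1 at 4027 CPM (438 to 14522), Thrsp at 387 CPM (26.2 to 2164), Acly at 128 CPM, Elovl6 at 57.3 CPM and Srebf1 at 39.1 CPM did not pass. Without the polysomal libraries numbered 1, Me1 (-0.25, adjusted p = 0.172) and Pnpla3 (-0.998, adjusted p = 0.0647) lost the call and Acaca and Acacb did not. Me1 also lost it without the Cfd-high libraries (-0.24, adjusted p = 0.255) and with the library number as a block (-0.30, adjusted p = 0.141), as did Pnpla3 with the block (-0.79, adjusted p = 0.192). That block takes same-numbered polysomal and total RNA libraries as counterparts, which they may not be, as given above. Calls lost under it are therefore no test of the result.

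The direction of this comparison depended on the set of library numbers, and it sets same-numbered polysomal and total RNA libraries side by side although, as given above, these numbers may not correspond. For all genes but Acaca and Acacb, numbers 1 to 3 were the higher set in total and the lower set in polysomal RNA. Directions below, other than those of Acaca and Acacb, therefore cannot be read as changes between the fractions. Within numbers 1 to 3 all 10 genes were lower in polysomal RNA (median -1.39), and within numbers 4 to 6, 7 were higher and 2 lower (median 0.838). Of all genes tested 65.8% were called within numbers 1 to 3 (3900 of 11560 lower). Within numbers 4 to 6 72.6% were called (4070 of 11494 higher, 4271 lower). Scd1 differed by -1.07 in the one set and 1.86 in the other, Thrsp by -2.03 and 1.32, and Pnpla3 by -5.09 and 2.32. Acaca (-1.81 within numbers 4 to 6) and Acacb (-0.79) were the 2 genes called lower in both sets. They are also the 2 genes whose mean level was higher in numbers 1 to 3 of both polysomal and total RNA.

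Usage of 3′ ends was measured as the share of a gene's counts that fell at each site of the authors' filtered site list, given to genes by position. Exon and intron positions were not at hand. Whether a site far inside a gene is the end of a mature transcript was therefore not tested. Positions are on mm10, the build named by the submitters' processing notes, and distances are to the end of the gene in the RefSeq annotation of GRCm38.p6. The sites of 9 of the 10 genes could be used, with none for Pnpla3. Acacb and Thrsp had 1 site each. Fasn had 97.5% ± 0.44 (SD, n = 36) of its counts at chr11:120807065-120807414 in wild-type total RNA, and Acly 99.3% ± 0.411 (SD, n = 36) at chr11:100476343-100476618, both on the minus strand.

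Elovl6 was read from 2 main sites on the plus strand of chromosome 3. The distal one, chr3:129638267-129638500, lies at the annotated end of the gene, and the proximal one, chr3:129634823-129635015, 3480 bp before it. In wild-type total RNA the distal site held 55.0% ± 4.75 (SD, n = 36) of the counts, from 42.0% to 63.4%. In polysomal RNA it held 89.4% ± 4.44 (SD, n = 36), from 80.0% to 96.8%. The 2 ranges did not overlap, and the usage of the site differed by 0.70 on the log2 scale (SE 0.03, adjusted p = 5.74e-33).

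The proximal Elovl6 site fell from 38.3% ± 4.17 (SD, n = 36) to 5.81% ± 4.79 (SD, n = 36) in polysomal RNA, a log2 difference of -2.72 (SE 0.18, adjusted p = 2.01e-21). Its share was 4.51% within numbers 1 to 3 and 7.12% within numbers 4 to 6, so both sets had it low, unlike the gene's level. In nuclear RNA it held 17.1% ± 10.2 (SD, n = 36), a difference of -1.25 (SE 0.11, adjusted p = 7.55e-16). A site 5013 bp before the end, chr3:129633411-129633482, held 12.9% in nuclear and 4.13% in total RNA (1.58, adjusted p = 2.01e-11).

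**Figure D4:**
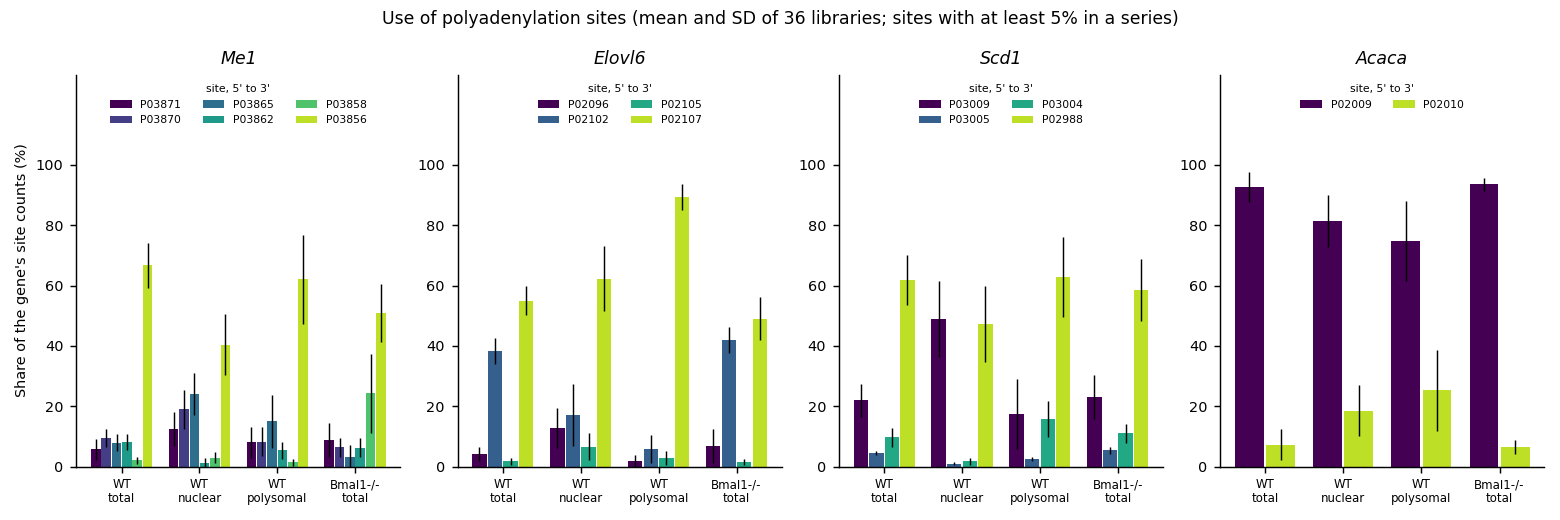
Mean share of a gene's site counts at each site, in percent, with the SD of 36 libraries as bars, for Me1, Elovl6, Scd1 and Acaca in the 4 series, with sites named as in the deposited list and ordered 5′ to 3′. The distal Elovl6 site (P02107) is at 55.0% in wild-type total and 89.4% in polysomal RNA, and the Me1 site 403 bp before the gene's end (P03858) is at 2.04% in wild-type and 24.3% in Bmal1-/- total RNA.

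Me1 showed the largest change with genotype. The site chr9:86581766-86581834, 403 bp before the annotated end of the gene on the minus strand, held 2.04% ± 1.04 (SD, n = 36) of Me1 counts in wild-type total RNA, from 0.466% to 5.80%. In Bmal1-/- it held 24.3% ± 13.1 (SD, n = 36), from 0% to 44.7%, so the ranges overlapped at the low end, and the Bmal1-/- median of 28.8% lay far above the wild-type maximum. The log2 difference in usage was 3.53 (SE 0.23, adjusted p = 6.68e-20). It was seen in both sets of numbers, at 20.2% and 28.4% in Bmal1-/- and 2.20% and 1.87% in wild type.

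The Me1 site at the gene's end, chr9:86581368-86581596, fell from 66.7% ± 7.43 to 50.8% ± 9.64 (SD, n = 36 each; -0.38, adjusted p = 2.48e-07). A site inside the gene, chr9:86598771-86598822, 17408 bp before its end, fell from 7.94% ± 2.83 to 3.32% ± 3.96 (SD, n = 36 each; -1.89, adjusted p = 2.24e-08). In all, 7 of the 15 member sites tested changed in usage between the genotypes, of Me1, Elovl6 and Srebf1, beside 9.04% of all sites tested. The Elovl6 proximal site stood at 42.0% in Bmal1-/- against 38.3% (0.14, adjusted p = 0.0121), and Scd1 and Acaca sites did not pass. Within numbers 4 to 6 the proximal and distal Elovl6 sites did not pass (adjusted p = 0.937 and 0.731). The Srebf1 site passed within neither numbers 1 to 3 (adjusted p = 0.277) nor numbers 4 to 6 (0.0621). Sites of one gene share its counts, so their changes are not independent.

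Scd1 was read from a site at its end, chr19:44394439-44394804, and from chr19:44406642-44406757, which lies 12192 bp before the end and 952 bp from the start of the gene. The second held 21.9% ± 5.40 (SD, n = 36) of the counts in total RNA, from 11.9% to 30.7%, and 49.0% ± 12.7 (SD, n = 36) in nuclear RNA, from 27.2% to 83.9%. The ranges overlapped between 27.2% and 30.7%, with a log2 difference of 1.16 (SE 0.09, adjusted p = 1.21e-18). A site 2724 bp before the end, chr19:44397174-44397457, held 9.70% in total, 1.74% in nuclear and 15.9% in polysomal RNA (nuclear difference -2.50, adjusted p = 5.52e-22; polysomal 0.70, adjusted p = 6.30e-07).

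All 15 member sites tested changed in usage between nuclear and total RNA, beside 78.7% of all sites, and 7 of 14 between polysomal and total RNA, beside 70.5%. Among them the last Acaca site, chr11:84401643-84401659, held 7.28% of counts in total, 18.6% in nuclear and 25.3% in polysomal RNA. That site starts just past the end of the larger Acaca site, and the 2 were counted separately in the deposited list.

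Whether the genes moved together between libraries of the same time was asked of Fasn and each of the other 9. Because the 2 sets of numbers stand apart, r was taken within each set of 18 libraries, from deviations of log2(CPM + 0.5) from the time means, with 100000 permutations within times. This gave 72 relations, adjusted together. Fasn was set against these 9 genes only, so no share over all genes stands beside the counts. Whether other genes moved with Fasn as much was not tested. In wild-type total RNA, numbers 1 to 3, 6 of the 9 genes were called, with a median Pearson r of 0.811. Acacb had r = 0.903 (permutation adjusted p = 0.00418) and Spearman's rho = 0.858 (permutation adjusted p = 0.0182), and Thrsp r = 0.868 (permutation adjusted p = 0.0128) and rho = 0.818 (permutation adjusted p = 0.0256). Without the 2 libraries farthest from the median of Fasn their r was 0.817 and 0.781.

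Srebf1 stood out of that pattern, at r = 0.038 with Fasn (rho = 0.032, permutation adjusted p = 0.891 and 0.931). In numbers 4 to 6 of the same series Acaca (r = 0.714, rho = 0.754) and Elovl6 (r = 0.842, rho = 0.69) were the 2 genes called by Pearson's r (permutation adjusted p = 0.00792 and 0.0451), and Acaca alone by Spearman's rho. In Bmal1-/- total RNA 5 and 7 of the 9 genes were called in the 2 sets, with median r of 0.751 and 0.774. The nuclear sets gave 5 and 1, and the polysomal sets 2 and 4.

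**Figure D5:**
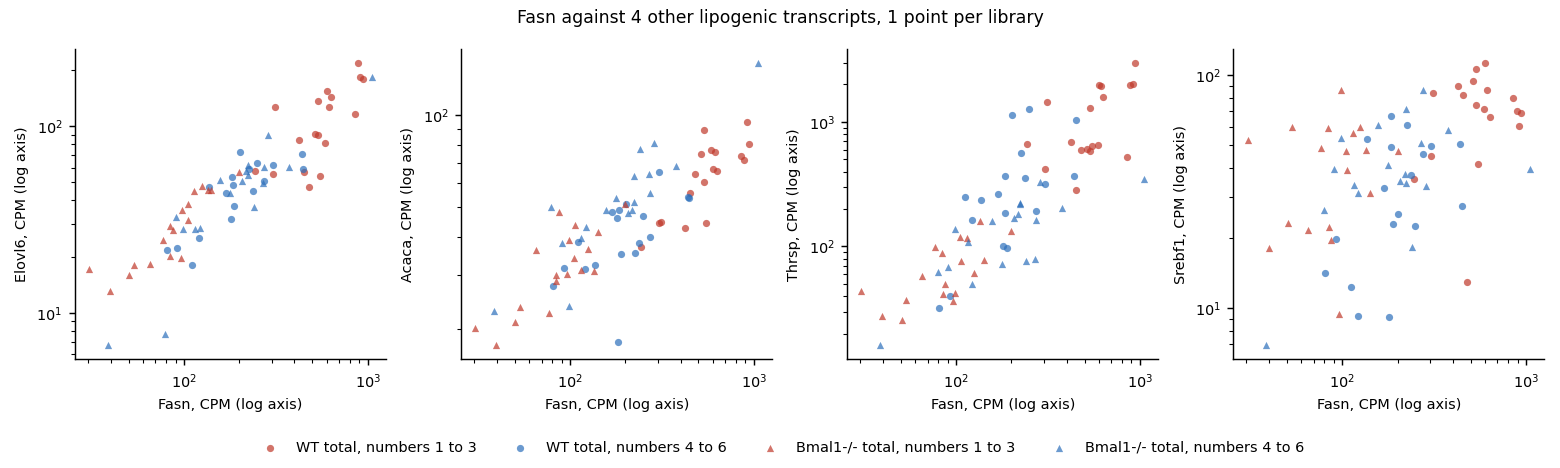
Level of Elovl6, Acaca, Thrsp and Srebf1 against that of Fasn, in CPM on log axes, with 1 point per library of wild-type (circles) and Bmal1-/- (triangles) total RNA, library numbers 1 to 3 in red and 4 to 6 in blue. The wild-type sets lie apart along Fasn, with means of 577 and 212 CPM, and r is therefore given within each set of 18 libraries.

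The wider pathway was described by 4 lists of genes. In Bmal1-/- against wild-type total RNA, where 44.1% of all genes tested were called, 9 of 10 genes of substrate and NADPH supply changed (1 higher, 8 lower, median -0.426), among them Idh1 (cytosolic isocitrate dehydrogenase, -0.51) and Mpc1 (a mitochondrial pyruvate carrier subunit, -0.44). Of 11 elongation and desaturation genes 2 were higher and 4 lower (median -0.239), with Fads2, the delta-6 desaturase, at -1.05 and Hsd17b12, the 3-ketoacyl-CoA reductase, at -0.61. Of 7 triglyceride assembly genes 1 was higher and 4 lower (median -0.201), with Gpam, the first acyltransferase, at -1.07 and Lpin2 at -0.74.

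Of 12 regulators 2 were higher and 4 lower (median -0.0738), a share called that is near that of all genes. Mlxipl, which encodes ChREBP, was lower by -0.51 on the log2 scale, and Insig2, which holds SREBP in the endoplasmic reticulum, was higher by 0.92. Supply genes called lower numbered 7 of 10 within numbers 1 to 3 and 1 of 10 within numbers 4 to 6, and triglyceride assembly genes called lower 5 and 1 of 7, where 38.8% and 33.5% of all genes tested were called. These sets may not correspond between the genotypes. In wild-type total RNA 3 of 12 regulators, 2 of 10 supply genes, 1 of 11 elongation and desaturation genes and 4 of 8 triglyceride assembly genes were rhythmic, beside 18.9% of all genes tested. Among these were Insig2 (peak ZT23.8, log2 ratio 1.97), Elovl3 (ZT23.8, 3.15) and Lpin1, a phosphatidate phosphatase (ZT14.0, 2.22). In Bmal1-/- total RNA 0 genes of the 4 lists were rhythmic by edgeR, with 2 elongation and desaturation genes and 1 triglyceride assembly gene at an unadjusted p under 0.05. Among the genes of these lists whose rhythm differed between the genotypes were Insig2, Scap, Elovl3 and Dgat2.

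In nuclear RNA, where 83.8% of all genes tested were called (41.6% higher, 42.1% lower), 7 of 12 regulators were higher and 3 lower than in total RNA, with Nr1h2, an LXR gene, at 1.49 and Scap at 1.32. The supply genes counted 3 higher and 5 lower of 9 (Mpc2 at -2.25), elongation and desaturation 5 and 4 of 11 (Tecr at 1.69), and triglyceride assembly 2 and 1 of 7 (Dgat1 at 2.12). In polysomal RNA, where 76% of all genes were called and 38.8% were higher, 11 of 12 regulators were higher and 1 lower, Mlxipl at -1.60. Within numbers 1 to 3 and 4 to 6, 7 and 9 of the 12 regulators were higher there and 1 lower in each. Supply genes counted 3 higher and 4 lower of 9 (Mpc1 at 2.25), elongation and desaturation 6 and 1 of 11 (Tecr at 1.30), and triglyceride assembly 2 and 2 of 7 (Dgat1 at 1.495). The polysomal supply genes counted 3 higher and 5 lower of 10 within numbers 1 to 3 and 4 higher and 2 lower of 9 within numbers 4 to 6. The polysomal and total RNA sets may not correspond, so these splits by set may not compare like libraries. All 3 comparisons share the wild-type total RNA libraries.

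Over the 36 wild-type total RNA libraries the 5 genes most like the mean of the 10, among 7964 genes compared, were Mkks (r = 0.89), Gpam (0.87), Pklr, the liver pyruvate kinase (0.86), Mycbp2 (0.857) and Gm35986 (0.844). These r describe the pattern over libraries that share the split by library number.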

How the data were processed

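Liver RNA of 4 series (wild-type total, nuclear and polysomal RNA, Bmal1-/- total RNA) was read by QuantSeq 3′ sequencing from 2 µg of input RNA, per the labels' protocols. The authors deposited raw counts per gene and per polyadenylation site, and a filtered list of site positions whose filter is not stated. STAR 2.4.2a, HOMER, edgeR and the builds mm10 and GRCm38.p5 are named in the submitters' processing notes, with no role given. Every count column matched a sample by name, with 0 columns left without one. The deposited normalized tables were not used.

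From the counts, edgeR 4.0.16 in R 4.3.3 (TMM, robust quasi-likelihood test, Benjamini-Hochberg over all genes tested, threshold 0.05) was fitted to genes that averaged 10 or more counts in the libraries compared. A level difference is the contrast of the means of the 6 time means. Rhythm is the 24 h cosine and sine, and a different rhythm is their interaction with the series. Each listed site was matched by position to the RefSeq gene that holds it on its strand, allowing 1000 bp beyond the 3′ end. Usage was tested with the log of the gene's site total plus 0.5 as offset, for sites with at least 5% of a gene with at least 50 counts. As a check of the build, 21% of sites ended within 25 bp of a gene's start or end, and 0.366% after a shift of 5000 bp. Depth and input were as given in the results, and levels (CPM) below about 1 rest on few reads. The edgeR fits of level, rhythm, different rhythm, single time points and site usage were tested on simulated data with known changes. The permutation test, the matching of sites to genes and the motif search were not.

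The text names all 10 genes in every result, from each of 4 pathway lists genes among the 2 with the smallest p, and the 5 genes most like the mean of the 10. One item of the pathway lists is not reported here by name. The genes and lists were chosen with earlier results of these data known. Alternatives tried were DESeq2 1.42.0, its size factors, a count minimum of 1, each set of library numbers alone, replicate blocks, a joint fit, leaving out Cfd-high libraries, other site filters and another pseudocount. Replicates were compared by chi-square of their counts, and the smallest value per gene of a pair was 4.03, so none was counted as a copy.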

Additional observations from a re-analysis of the deposited data

Results flagged for a closer look

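In 240 groups of 6 libraries (10 genes, 4 series, 6 times), 15 groups (6.25%) had 1 library far from the other 5 by Dixon's criterion, which chance alone gives in about 1 in 20 groups. In 8 the library was high and in 7 low.

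In wild-type total RNA, Elovl6 at ZT2 was 117 CPM in library 3, with the others between 37.4 and 57.1. Acly at ZT22 was 434 CPM in library 5, with the others between 122 and 182, and the nuclear library of the same time and number held 223 CPM of Acly against 33.3 to 61.2 in the others.

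In nuclear RNA, Acacb at ZT6 was 95.0 CPM in library 3 (others 40.0 to 54.9). Thrsp at ZT14, its peak time, was 204 CPM in library 4 (others 897 to 1601). Elovl6 at ZT22 was 12.2 CPM in library 6 (others 25.8 to 36.1).

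In polysomal RNA, Acaca was 4.81 CPM in library 6 at ZT10 (others 11.9 to 19.2) and 7.01 CPM in library 5 at ZT14 (others 16.2 to 22.9). Srebf1 was 82.1 CPM in library 6 at ZT14 (others 28.3 to 40.3). Thrsp was 150 CPM in library 3 at ZT14 (others 839 to 2164). Library 1 at ZT18 was low in both Srebf1, at 7.42 CPM (others 37.8 to 61.3), and Scd1, at 438 CPM (others 2216 to 5221).

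In Bmal1-/- total RNA, Acacb at ZT18 was 8.12 CPM in library 4 (others 2.88 to 3.96). Pnpla3 was 0.214 CPM in library 5 at ZT18, with the others at 0, and 1.25 CPM in library 6 at ZT22, with the others between 0 and 0.139.

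With the loss of Bmal1 the rhythm of Thrsp in total RNA was different by the interaction test of edgeR (adjusted p = 0.0337), and that call depends on the libraries used, as given with the result.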

How the results depend on the processing

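The set of library numbers was the choice that moved most. Sets of Bmal1-/- and wild-type total RNA may not correspond, so counts by set depend on how libraries were numbered. For numbers 4 to 6 alone, 4 genes were lower in Bmal1-/-, 8 gene and time pairs were called and 4 sites changed in usage with genotype. Values that turned in sign there without a call were Srebf1 at 0.22 and Acaca at 0.29 on the log2 scale, Scd1 at 0.0285 (ZT2) and 0.0616 (ZT14), and the Scd1 site chr19:44406642-44406757 at -0.0702. For numbers 1 to 3 usage of the 2 Acaca sites differed by -0.0227 and 0.28. In polysomal against total RNA 10 genes were called for numbers 1 to 3 (Fasn -0.90, Scd1 -1.07) and 9 for numbers 4 to 6 (Srebf1 0.87, Elovl6 0.80, Me1 0.68, Pnpla3 2.32, Thrsp 1.32), where Acly, at 0.0368, was not called. The sets of polysomal and total RNA may not correspond, so these turns are no test of the result. Polysomal usage of the Scd1 end site was -0.0364 for numbers 4 to 6 and -0.0456 without polysomal replicate 1, and of the Srebf1 sites 0.25 and -0.0614 for numbers 1 to 3. With sites of at least 1%, 13 polysomal sites changed. Without polysomal replicate 1, 2 genes were called in level and 2 in rhythm.

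Rhythmic genes in wild-type total RNA numbered 1 in the joint fit and 1 for any difference between times. Nuclear ones numbered 2 by DESeq2, 2 for numbers 4 to 6 and 0 for any difference. Polysomal ones numbered 1 for numbers 1 to 3, 2 for numbers 4 to 6 and 2 for any difference. The different rhythm of Thrsp gave 0 calls for numbers 1 to 3, without Cfd-high libraries, in the joint fit and without Bmal1-/- replicate 6 of ZT2. This last setting and the covariation within sets (32 of 72 called, 34 of 36 pooled) were chosen after seeing the data. The cause of these shifts was not tested.

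The labels do not say that numbers pair libraries, and no comparison had every same-numbered correlation over 0.1, so the fits were made without a block. The mean correlation of same-numbered libraries with wild-type total RNA was 0.347 for nuclear (over 0.1 in 34 of 36, and 32 best with their own number), -0.132 for polysomal (1 and 0, with 34 best with a number of the other set) and 0.0747 for Bmal1-/- (18 and 13). With the replicate block, 5 genes were rhythmic in wild-type total and 2 in nuclear RNA, and 2 were called in polysomal level, also 2 with number and time as the block. Both blocks of the polysomal comparison, and the block of the genotype comparison, rest on numbers that may not correspond to those of wild-type total RNA. Of 210 single values under a block 191 gave the same call and 0 reversed. Of 1368 single values over all alternatives 1245 gave the same call, 71 lost it, 33 gained it and 19 reversed.

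Depth limits Pnpla3 most: it was at 0 in 16 of 36 Bmal1-/- libraries and not tested in all fits.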

Other observations

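At ZT22 in wild-type mice, high Acly and Pnpla3 came together in single libraries. In total RNA library 5 held 434 CPM of Acly and 9.38 CPM of Pnpla3, where the other 5 libraries held 122 to 182 and 1.05 to 5.14 CPM. In nuclear RNA library 5 held 223 and 126 CPM, where the others held 33.3 to 61.2 and 1.77 to 21.6 CPM. In polysomal RNA it was library 1 that held 451 and 8.11 CPM, where the others held 93.7 to 204 and 0 to 4.06 CPM. The 3 libraries were picked out after their values were seen.

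Single Bmal1-/- libraries were high in several of the genes at once. In Bmal1-/- total RNA the library of ZT14 numbered 5 held 2963 CPM of Scd1 and 327 CPM of Thrsp, and the library of ZT2 numbered 6 held 4376 and 348 CPM, against medians of 464 and 78.9 CPM over the 36 libraries.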
